A study of Mus musculus with 29 samples.

Results

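Transcripts of 38 genes for the enzymes, membrane proteins and proton pump of the lysosome were measured by RNA sequencing in mouse CD4+ T cells that had been activated with or without lactic acid and TGF-beta. Ensembl identifiers were matched to mouse gene symbols, and a named gene was kept where 3 or more libraries held at least 10 counts. All 38 named genes met this rule, out of 55414 identifiers listed, and all 38 were among the 14375 genes tested. They comprise 6 subunits of the V0 sector and 8 of the V1 sector of the pump, 2 accessory pump proteins, 5 membrane and transport proteins, 8 peptidases, 7 genes for the breakdown of glycans and lipids, and 2 transcription factors.

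The lysosome is the acidic compartment in which cells degrade proteins, glycans and lipids taken up from outside or delivered by autophagy. Its acidity is made by the vacuolar ATPase, in which the cytosolic V1 sector hydrolyses ATP and turns a ring of the membrane-bound V0 sector that carries protons into the lumen. TFEB and TFE3 are transcription factors that bind an E-box, the CLEAR element, in the promoters of many lysosomal genes and are held in the cytosol by mTORC1 in fed cells. In T cells the lysosome also serves as the surface on which mTORC1 senses amino acids.

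The cells were CD4+ T cells of the spleen of C57BL/6-Foxp3tm1Flv/J mice, in which red fluorescent protein (RFP) reports Foxp3, the defining transcription factor of regulatory T cells. All cultures received antibodies to CD3 and CD28, 50 IU/ml interleukin 2 and medium with 0.5 mM glucose, so no unstimulated cells and no cells in high glucose are part of the comparisons. At 72 h, RFP-positive cells (Treg) were sorted from cultures with 3 ng/ml TGF-beta plus 10 mM lactic acid and from cultures with TGF-beta alone. RFP-negative cells (Tcon) were sorted at 72 h and at 24 h from cultures with TGF-beta plus lactic acid, with TGF-beta alone, with lactic acid alone, and with neither. This gave 10 groups of 3 libraries each, except the Tcon group at 72 h with neither addition, which had 2 (replicates 1 and 2), and 29 libraries in all. Mice were male for replicate 1 and female for replicates 2 and 3, so sex and replicate number cannot be told apart. The sources used here give no ages and do not say whether a replicate was 1 mouse, a pool or a separate culture, so p-values measure the spread between these libraries. In such sorted bulk samples, fewer cells of a type and less RNA per cell cannot be told apart.

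Gene counts per library ranged from 9754511 to 14315313 (median 12106958), and 17810 to 20068 genes were detected. The first principal component held 52.3% of the variance and separated the times, the second held 20.3% and separated, within each time, cultures with TGF-beta from those without, and the third, with 7.78%, set the 72 h libraries of replicate 1 (scores 6.51 to 51.6) apart from the other 72 h libraries (scores -34.9 to -5.38). The marker genes of T cells summed to group means of 2337 to 3195 CPM (counts scaled to a common library total). The 7 markers of B cells summed to group means of 1.16 to 4.66 CPM, the 6 of erythroid cells to 0.247 CPM at most, and the 7 of CD8 T and NK cells to 64.6 to 179.6 CPM. The 11 myeloid markers summed to group means of 3.43 to 17.1 CPM, with 3 to 7 of the 11 at 0 in a library, and Lyz2 averaged 0.181 CPM at most in any group. The sort was seen at 72 h in Foxp3 itself, which averaged 467 CPM in Treg with TGF-beta and lactic acid against 48.2 CPM in Tcon of the same cultures, and 224 CPM in Treg with TGF-beta alone against 23.4 CPM in Tcon of those cultures. In Tcon at 24 h Foxp3 averaged 64.9 CPM with TGF-beta and lactic acid and 47.3 CPM with TGF-beta alone. There it averaged 1.45 CPM with lactic acid alone and 1.20 CPM with neither addition.

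Promoter sequences of RefSeq (assembly GRCm38.p6, 250 bases before to 50 bases after the start of a gene) were found for 31 of the 38 genes and searched on both strands for TCACGTG, the letters at the core of the CLEAR element. The 31 genes had 39 promoter sequences, and a gene was counted where any of its sequences held the letters. The letters stood in a promoter of 12 of the 31 genes (38.7%), against 1160 of 27025 genes with a promoter in the table (4.29%). The plain E-box CACGTG, which lies within TCACGTG, stood in 13 of the 31 (41.9%), against 8.09% of all genes. The full CLEAR element, TCACGTG with a G before it and AC after it, stood in 0 of the 31, against 0.37% of all genes. The promoters below are those of the 2 genes that passed the test under lactic acid (Arsb and Hexa), the peptidase Ctsa, the channel Mcoln1, the pump subunit Atp6v0d1 and the membrane protein Lamp1. Capitals mark TCACGTG on either strand, and TCACGTGA in capitals holds it on both.
Arsb, chr13:93771429-93771728, plus strand: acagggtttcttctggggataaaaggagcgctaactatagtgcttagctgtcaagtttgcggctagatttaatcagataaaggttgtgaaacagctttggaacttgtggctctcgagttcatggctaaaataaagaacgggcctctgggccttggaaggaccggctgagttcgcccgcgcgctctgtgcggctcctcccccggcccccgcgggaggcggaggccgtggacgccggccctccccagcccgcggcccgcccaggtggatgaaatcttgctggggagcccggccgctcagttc
Hexa, chr9:59539290-59539589, plus strand: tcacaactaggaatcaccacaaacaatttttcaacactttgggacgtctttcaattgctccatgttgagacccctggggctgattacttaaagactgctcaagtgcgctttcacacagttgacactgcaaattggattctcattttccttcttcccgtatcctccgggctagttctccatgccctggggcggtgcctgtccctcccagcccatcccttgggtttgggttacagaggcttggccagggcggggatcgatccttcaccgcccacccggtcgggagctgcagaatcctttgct
Ctsa, chr2:164833523-164833822, plus strand: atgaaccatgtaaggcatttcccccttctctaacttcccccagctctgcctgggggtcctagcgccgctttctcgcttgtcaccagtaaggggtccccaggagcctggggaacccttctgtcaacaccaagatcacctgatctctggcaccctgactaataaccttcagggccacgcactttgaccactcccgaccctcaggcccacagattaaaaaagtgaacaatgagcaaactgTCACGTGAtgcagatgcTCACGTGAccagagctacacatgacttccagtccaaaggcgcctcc
Mcoln1, chr8:3500269-3500568, plus strand: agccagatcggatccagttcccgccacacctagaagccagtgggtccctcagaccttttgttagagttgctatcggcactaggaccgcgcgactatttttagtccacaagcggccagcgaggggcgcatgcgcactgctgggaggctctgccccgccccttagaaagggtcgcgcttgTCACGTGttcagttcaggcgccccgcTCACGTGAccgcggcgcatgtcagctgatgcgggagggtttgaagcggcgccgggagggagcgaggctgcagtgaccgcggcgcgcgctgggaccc
Atp6v0d1, chr8:105566015-105566314, minus strand: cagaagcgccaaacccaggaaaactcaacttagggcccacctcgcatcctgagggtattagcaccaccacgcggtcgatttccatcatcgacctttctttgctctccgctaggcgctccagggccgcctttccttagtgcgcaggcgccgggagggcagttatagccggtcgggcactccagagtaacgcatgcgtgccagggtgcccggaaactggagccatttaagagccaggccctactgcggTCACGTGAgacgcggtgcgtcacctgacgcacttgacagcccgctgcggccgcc
Lamp1, chr8:13158911-13159210, plus strand: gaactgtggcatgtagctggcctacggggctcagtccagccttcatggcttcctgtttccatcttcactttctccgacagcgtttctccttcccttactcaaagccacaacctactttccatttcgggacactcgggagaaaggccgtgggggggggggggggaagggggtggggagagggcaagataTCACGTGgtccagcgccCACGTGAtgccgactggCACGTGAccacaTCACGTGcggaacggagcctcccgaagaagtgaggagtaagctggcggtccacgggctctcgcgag
The Lamp1 promoter held 4 sites, those printed for Ctsa and Mcoln1 held 2 each and that of Atp6v0d1 held 1, while those of Arsb and Hexa held 0. Ctsa also had a promoter sequence without a site, which is not printed. The other 8 genes with a site were Atp6v0b, Atp6v0e, Atp6v1a, Ctsd, Lgmn, Gaa, Glb1 and Arsa.

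**Figure D1:**
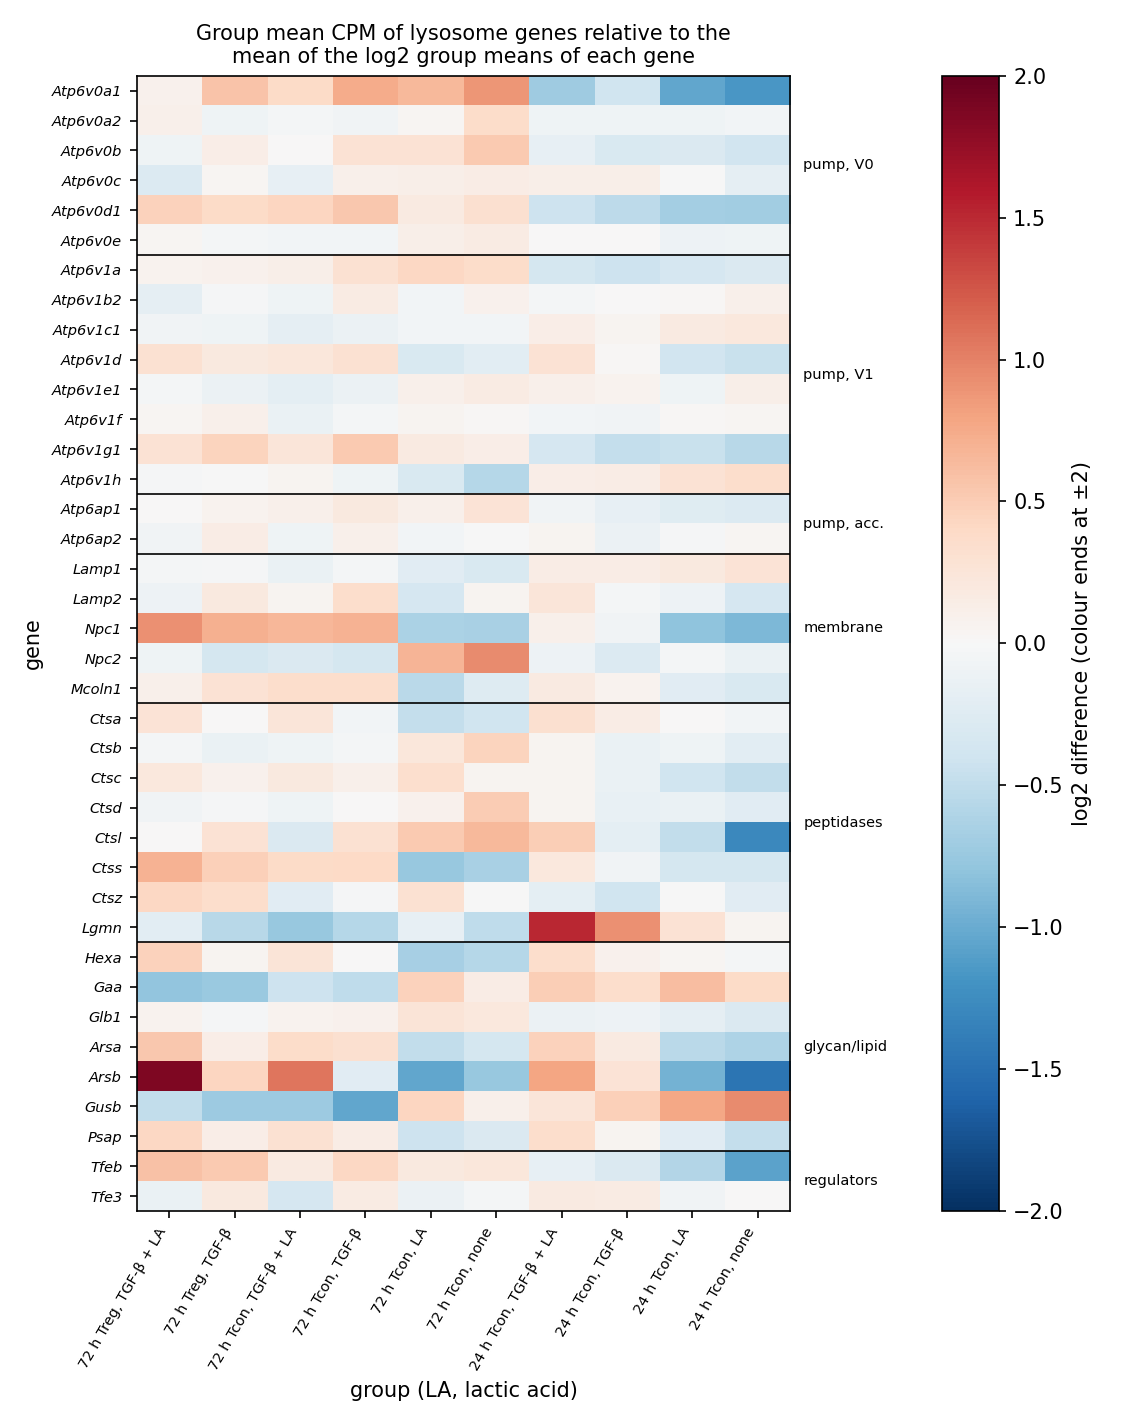
Group mean CPM of each of the 38 genes (rows, by role) in the 10 groups (columns, 72 h left and 24 h right), as a log2 difference from the mean of the log2 group means of that gene, with colour ending at a difference of 2. Among the pump rows Atp6v0a1, Atp6v0d1 and Atp6v1g1 have the highest ratios of group means (4.13, 2.36 and 2.11) and are low at 24 h, whereas Arsb runs from 9.19 CPM in Tcon at 24 h with neither addition up to 92.1 CPM in Treg with TGF-beta and lactic acid.

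Per kilobase of annotated exon, the most abundant transcript over all libraries was Psap, which encodes prosaposin, the precursor of the activators of sphingolipid hydrolases, with a median level of 97.7 CPM per kb. Lamp1, a main glycoprotein of the lysosomal membrane, followed with 62.8 CPM per kb. The cysteine peptidase gene Ctsz had a median of 53.4 CPM per kb and the V1 subunit gene Atp6v1f 50.7 CPM per kb. Npc2 had a median of 50.45 CPM per kb. Before division by length, Npc2 had the highest median of the list, 274.3 CPM, against 268.0 CPM for Psap. The lowest medians were those of the peptidase genes Ctsl (0.648 CPM per kb) and Lgmn (1.03 CPM per kb). The pump was the most even part of the list: the ratio of the highest to the lowest group mean CPM had a median of 1.50 over the 8 V1 genes and 1.63 over the 6 V0 genes. Among the 7 genes for glycan and lipid breakdown that ratio had a median of 2.23, with 5 of them at 2 or more, and Arsb had the highest ratio of the 38 genes, 10.02. Atp6v1f had the lowest, 1.17. Over all 38 genes the median ratio was 1.78, and 14 genes reached a ratio of 2.

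The first question was whether lactic acid changed these transcripts, in 5 comparisons of cultures with lactic acid against the matching cultures without it. Arsb and Hexa rose in Treg at 72 h, and no gene of the list passed the edgeR test (adjusted p below 0.05 over all 14375 genes) in any of the 4 Tcon comparisons. In Treg, 2 of the 38 genes rose, where 1.49% of all genes rose, and 0 fell, where 2.02% fell. The count was 0 in Tcon at 72 h with TGF-beta, where 2.16% of all genes passed in either direction. The count was 0 in Tcon at 72 h without TGF-beta (0.0696% of all genes), in Tcon at 24 h with TGF-beta (0.23%) and in Tcon at 24 h without it (0.0835%). At an unadjusted p below 0.05 there were 9 genes in Treg, where 17.1% of all genes were below it, 7 in Tcon at 72 h with TGF-beta (14.2%), 7 without TGF-beta (8.97%), 6 in Tcon at 24 h with TGF-beta (8.33%) and 4 without it (7.14%). DESeq2 called 4 genes in Treg (4.93% of all genes) and 2 in Tcon at 72 h with TGF-beta (3.41%). It called 0 in Tcon at 72 h without TGF-beta (0.403%), 0 at 24 h with it (0.633%) and 0 at 24 h without it (0.39%).

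Within a time, libraries of the same replicate number deviated together, and a fit with the replicate number as a block (replicates paired) called more genes. It called 6 higher and 5 lower in Treg, where 9.91% of all genes were called higher and 9.79% lower. In Tcon at 72 h with TGF-beta it called 3 higher and 7 lower (6.7% and 8.68% of all genes). In Tcon at 72 h without TGF-beta it called 0 higher and 1 lower (1.12% and 2.3%). At 24 h it called 4 higher and 0 lower with TGF-beta (4.26% and 2.44%), and 2 higher and 1 lower without it (3.12% and 1.15%). The median log2 fold change of the 38 genes under lactic acid was 0.07 in Treg, -0.07 in Tcon at 72 h with TGF-beta, -0.08 in Tcon at 72 h without it, 0.14 at 24 h with TGF-beta and 0.08 at 24 h without it, while that of all genes tested lay between -0.01 and 0.01.

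**Figure D2:**
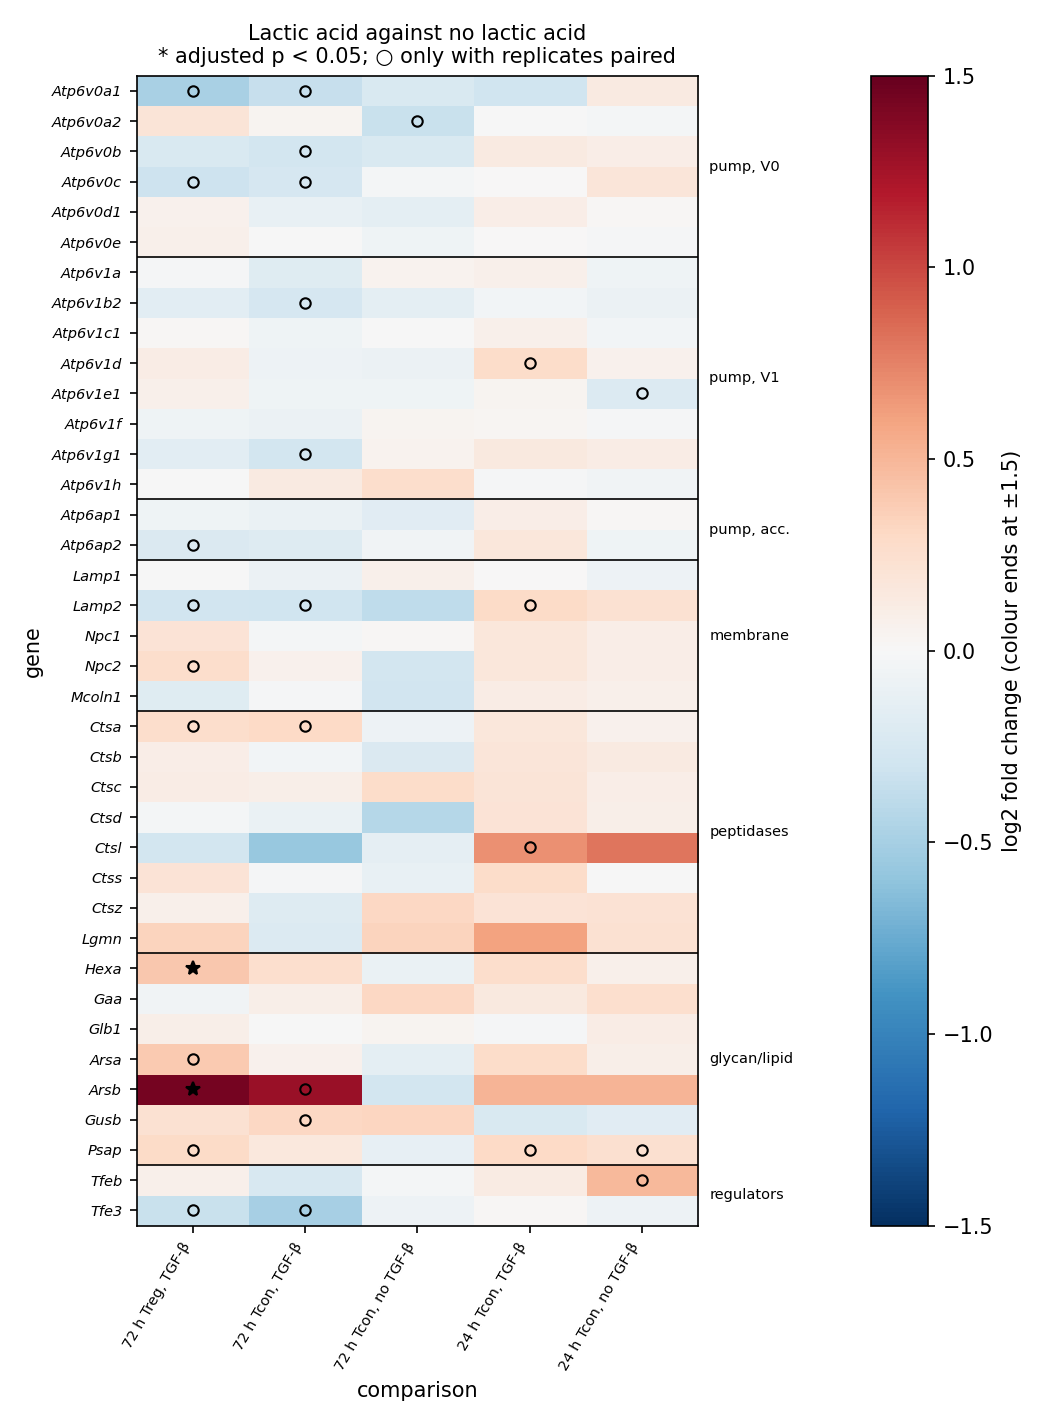
Log2 fold change of lactic acid against no lactic acid for the 38 genes (rows, by role) in the 5 comparisons (columns), with colour ending at 1.5, a star at an edgeR adjusted p below 0.05 and a circle where that held only with replicates paired. The 2 stars are Hexa and Arsb in Treg, and the circles lie mostly in the 72 h columns with TGF-beta, on the blue side for pump genes, Lamp2 and Tfe3 and on the red side for Ctsa and several hydrolase genes.

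Arsb encodes arylsulfatase B, which removes sulfate groups from dermatan sulfate and chondroitin sulfate. In replicates 1, 2 and 3 it had 52.7, 126 and 98.0 CPM in Treg with TGF-beta and lactic acid, against 18.8, 51.8 and 31.5 CPM in Treg with TGF-beta alone. Arsb had 28.2, 67.3 and 64.5 CPM in Tcon at 72 h with TGF-beta and lactic acid, against 10.2, 29.8 and 25.1 CPM with TGF-beta alone. Replicate 1 was the lowest library in each of these groups, and in all 3 replicates of both cell types the culture with lactic acid was the higher one. Without TGF-beta at 72 h, Arsb had 14.3, 11.1 and 11.6 CPM with lactic acid, against 17.8 and 12.1 CPM in replicates 1 and 2 with neither addition. At 24 h Arsb had 39.6, 39.0 and 52.4 CPM with TGF-beta and lactic acid, against 30.2, 27.4 and 34.3 CPM with TGF-beta alone. It had 13.2, 12.0 and 14.1 CPM at 24 h with lactic acid, against 9.71, 8.79 and 9.07 CPM with neither addition. The 24 h groups did not overlap in either medium, and the 72 h groups without TGF-beta did.

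In Treg, Arsb averaged 92.1 ± 36.8 CPM with lactic acid and 34.1 ± 16.7 CPM without it (SD, n = 3 each), a log2 fold change of 1.43 ± 0.36 (SE, edgeR adjusted p = 0.0249, and 9.93e-05 with replicates paired). In Tcon at 72 h with TGF-beta the log2 fold change was 1.29 ± 0.36, which passed with replicates paired (edgeR adjusted p = 0.000683) but not without (edgeR adjusted p = 0.0626). Leaving out the libraries of replicate 1 gave 1.42 in Treg (edgeR adjusted p = 0.000265) and 1.26 in Tcon (edgeR adjusted p = 0.00120). The log2 fold change was -0.28 ± 0.42 in Tcon at 72 h without TGF-beta, 0.51 ± 0.36 at 24 h with it and 0.51 ± 0.39 at 24 h without it (edgeR adjusted p = 0.854, 0.796 and 0.903). The call in Treg was lost when 1 library was left out in 4 of 6 cases: without replicate 1 or 3 of Treg with TGF-beta alone the edgeR adjusted p was 0.162 or 0.0855, and without replicate 2 or 3 of Treg with lactic acid it was 0.191 or 0.0827. It was also lost in a fit of these 2 groups alone (edgeR adjusted p = 0.256).

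**Figure D3:**
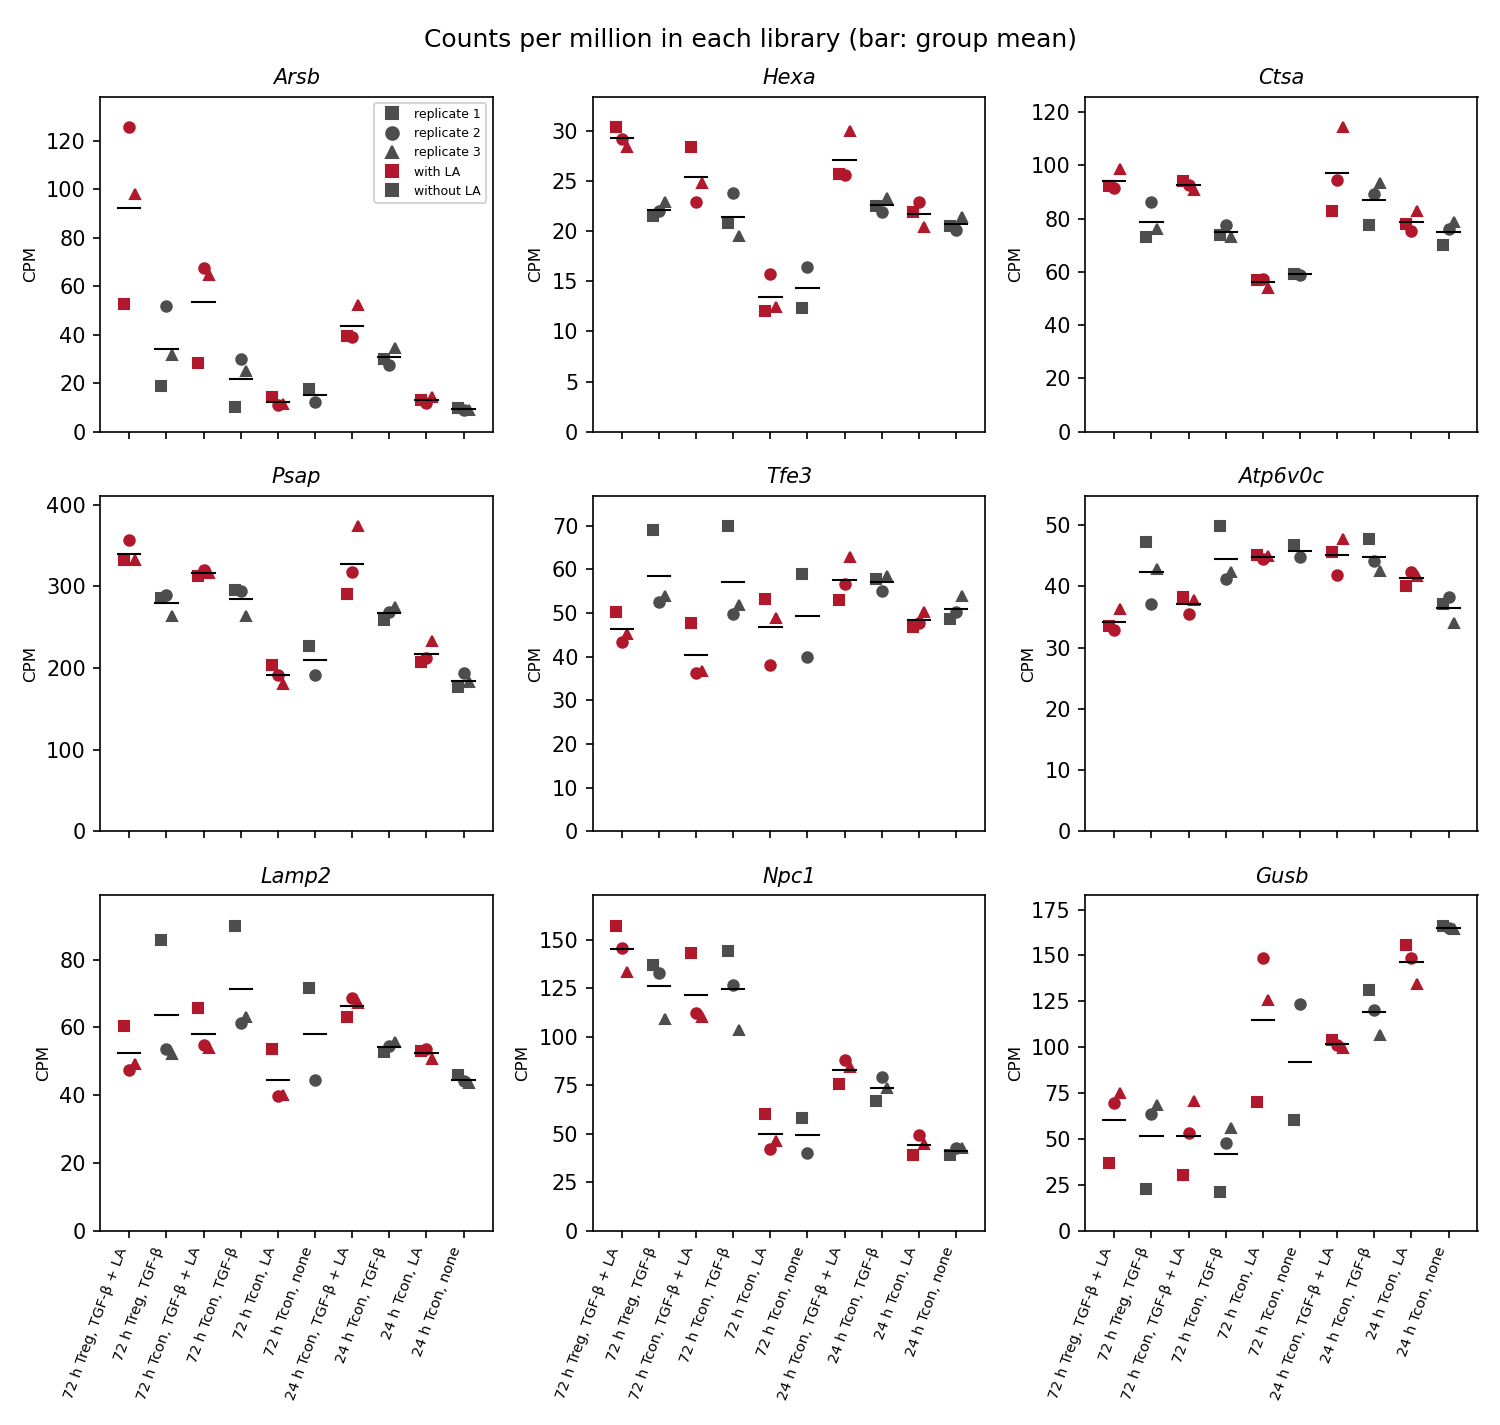
CPM of 9 genes in each library, by group (72 h left, 24 h right; red with lactic acid, grey without; symbols for replicates 1, 2 and 3; bars for group means), on linear axes from 0. Arsb reaches 125.6 CPM in Treg with TGF-beta and lactic acid, replicate 1 (squares) lies apart from replicates 2 and 3 at 72 h for Arsb, Lamp2 and Gusb, and Npc1 and Psap are higher with TGF-beta at both times.

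Hexa encodes the alpha subunit of beta-hexosaminidase, which trims gangliosides. It had 30.4, 29.2 and 28.4 CPM in Treg with TGF-beta and lactic acid, against 21.5, 22.0 and 22.9 CPM in Treg with TGF-beta alone. Hexa had 28.4, 22.9 and 24.8 CPM in Tcon at 72 h with TGF-beta and lactic acid, against 20.8, 23.8 and 19.6 CPM with TGF-beta alone. The Treg groups did not overlap, while the Tcon groups did. Hexa had 12.1, 15.7 and 12.4 CPM in Tcon at 72 h without TGF-beta and with lactic acid, against 12.3 and 16.4 CPM with neither addition. Levels at 24 h were 25.7, 25.6 and 30.0 CPM with TGF-beta and lactic acid, against 22.5, 21.9 and 23.3 CPM with TGF-beta alone. At 24 h without TGF-beta it had 21.9, 22.9 and 20.4 CPM with lactic acid, against 20.5, 20.1 and 21.4 CPM with neither addition. Lactic acid libraries were thus the higher ones at 24 h with TGF-beta and overlapped the others without it.

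The rise of Hexa in Treg was a log2 fold change of 0.41 ± 0.11 (edgeR adjusted p = 0.0489, and 0.00632 with replicates paired). It was lost in each of the 6 fits that left out 1 library of either Treg group (edgeR adjusted p 0.0806 to 0.182), without the libraries of replicate 1 (0.0943), without the filter on low counts (0.190) and with these 2 groups alone (0.226). In the other 4 comparisons its log2 fold change was 0.25 in Tcon at 72 h with TGF-beta, -0.10 without, 0.26 at 24 h with TGF-beta and 0.07 without (edgeR adjusted p 0.322 to 0.974).

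Of the other genes for glycan and lipid breakdown, Arsa, whose product removes sulfate from the myelin lipid sulfatide, averaged 17.3 ± 0.756 CPM in Treg with TGF-beta and lactic acid and 13.1 ± 0.898 CPM in Treg with TGF-beta alone. Its log2 fold change of 0.40 ± 0.15 passed with replicates paired (edgeR adjusted p = 0.00610) and not without (0.154). Psap averaged 340.2 ± 14.3 CPM in Treg with lactic acid and 279.5 ± 13.5 CPM without, a log2 fold change of 0.28 ± 0.09 (edgeR adjusted p = 0.0706, and 0.00326 with replicates paired). At 24 h the log2 fold change of Psap was 0.29 with TGF-beta and 0.24 without, and both passed with replicates paired (edgeR adjusted p = 0.0100 and 0.0463). Gusb, the gene of beta-glucuronidase, had 30.2, 53.4 and 70.9 CPM in Tcon at 72 h with TGF-beta and lactic acid, against 21.3, 47.6 and 56.1 CPM without. These groups overlapped, with replicate 1 the lowest in both, and each replicate was higher with lactic acid. The log2 fold change was 0.33 with replicates paired (edgeR adjusted p = 0.0363) and 0.30 without (0.818). Gaa, the gene of the lysosomal glycogen-degrading glucosidase, and Glb1, that of beta-galactosidase, passed in none of the 5 comparisons in either fit, with log2 fold changes of -0.05 to 0.31 and -0.02 to 0.11.

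Of the transcription factor genes, Tfe3 was lower with lactic acid in both cell types at 72 h with TGF-beta, and Tfeb was higher at 24 h without TGF-beta, each past the test when replicates were paired. Tfe3 had 47.7, 36.4 and 36.8 CPM in Tcon at 72 h with TGF-beta and lactic acid, against 69.8, 49.8 and 51.9 CPM with TGF-beta alone. In Treg it had 50.2, 43.5 and 45.2 CPM with lactic acid, against 69.1, 52.6 and 53.9 CPM without. In both cell types the highest library with lactic acid, replicate 1, lay below the lowest library without it. Tfe3 had 53.3, 38.2 and 48.9 CPM in Tcon at 72 h without TGF-beta and with lactic acid, against 59.0 and 39.8 CPM with neither addition. It had 53.1, 56.7 and 62.9 CPM at 24 h with TGF-beta and lactic acid, against 57.8, 55.0 and 58.5 CPM with TGF-beta alone. The 24 h levels were 46.9, 47.7 and 50.3 CPM with lactic acid, against 48.5, 50.3 and 53.9 CPM with neither. These last 3 pairs of groups overlapped.

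The log2 fold change of Tfe3 was -0.50 ± 0.15 in Tcon at 72 h with TGF-beta (edgeR adjusted p = 0.0883, and 3.37e-05 with replicates paired). In Treg it was -0.34 ± 0.15 (edgeR adjusted p = 0.242, and 0.00172 with replicates paired). In the other 3 comparisons it lay between -0.08 and 0.01 (edgeR adjusted p 0.897 to 1.00). The value in Tcon also passed without the libraries of replicate 1 (-0.48, edgeR adjusted p = 0.0130), and that in Treg did not (-0.26, edgeR adjusted p = 0.138).

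Tfeb had 29.4, 28.1 and 25.5 CPM in Treg with TGF-beta and lactic acid, against 26.1, 27.2 and 25.4 CPM in Treg with TGF-beta alone. Tfeb had 18.8, 22.2 and 21.0 CPM in Tcon at 72 h with TGF-beta and lactic acid, against 25.5, 25.2 and 22.4 CPM with TGF-beta alone. The Treg groups overlapped and the Tcon groups did not, with log2 fold changes of 0.08 ± 0.13 and -0.24 ± 0.13 (edgeR adjusted p = 0.834 and 0.453). Without TGF-beta at 72 h, Tfeb had 23.2, 21.9 and 17.8 CPM with lactic acid, against 23.3 and 19.5 CPM with neither addition. At 24 h Tfeb had 14.3, 16.9 and 17.9 CPM with TGF-beta and lactic acid, against 13.9, 15.8 and 15.3 CPM with TGF-beta alone. Levels at 24 h were 10.1, 12.1 and 14.7 CPM with lactic acid, against 7.26, 9.45 and 9.60 CPM with neither. Of these 3 pairs, the last did not overlap, and its log2 fold change of 0.49 ± 0.14 passed with replicates paired (edgeR adjusted p = 0.0124) and not without (0.311).

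In the pump, none of the 16 genes passed the edgeR test under lactic acid without pairing. Atp6v1a encodes the catalytic subunit of the V1 sector, which binds and hydrolyses ATP. It had 111, 121 and 119 CPM in Treg with TGF-beta and lactic acid, against 106, 121 and 129.7 CPM with TGF-beta alone. Atp6v1a had 132, 107 and 125 CPM in Tcon at 72 h with TGF-beta and lactic acid, against 143, 134 and 138 CPM with TGF-beta alone. The Treg groups overlapped, and the highest Tcon library with lactic acid lay below the lowest without it. Its levels without TGF-beta at 72 h were 150.4, 139 and 157 CPM with lactic acid, against 143 and 145 CPM with neither addition. It had 91.6, 90.0 and 81.6 CPM at 24 h with TGF-beta and lactic acid, against 91.9, 83.4 and 74.2 CPM with TGF-beta alone. The 24 h levels were 101, 85.1 and 78.0 CPM with lactic acid, against 99.2, 88.9 and 86.7 CPM with neither. Its log2 fold changes over the 5 comparisons were -0.19 to 0.08 (edgeR adjusted p 0.424 to 0.976, and 0.0803 to 0.936 with replicates paired).

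Atp6v0d1 encodes the V0 subunit that couples the turning V1 stalk to the proton-carrying ring. It had 86.0, 82.6 and 86.5 CPM in Treg with TGF-beta and lactic acid, against 82.0, 81.4 and 80.4 CPM with TGF-beta alone. Atp6v0d1 had 99.1, 76.0 and 76.7 CPM in Tcon at 72 h with TGF-beta and lactic acid, against 100.4, 86.8 and 84.1 CPM with TGF-beta alone. The Tcon groups overlapped, and the Treg groups lay just apart. Without TGF-beta at 72 h Atp6v0d1 had 82.3, 61.0 and 67.2 CPM with lactic acid, against 86.9 and 68.8 CPM with neither addition. At 24 h Atp6v0d1 had 43.2, 46.6 and 49.6 CPM with TGF-beta and lactic acid, against 42.5, 43.7 and 43.8 CPM with TGF-beta alone. Levels at 24 h were 39.3, 36.8 and 40.4 CPM with lactic acid, against 35.0, 41.2 and 39.0 CPM with neither. Its log2 fold changes under lactic acid were -0.15 to 0.10 (edgeR adjusted p 0.742 to 1.00, and 0.350 to 0.946 with replicates paired).

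Among the pump genes of the list, pairing replicates gave mainly lower calls, at 72 h with TGF-beta, while further pump genes outside the list went both ways (below). Atp6v0c encodes the proton-carrying ring subunit itself. It had 33.5, 32.8 and 36.3 CPM in Treg with TGF-beta and lactic acid, against 47.3, 37.2 and 42.8 CPM with TGF-beta alone. Atp6v0c had 38.2, 35.4 and 37.8 CPM in Tcon at 72 h with TGF-beta and lactic acid, against 49.8, 41.2 and 42.4 CPM with TGF-beta alone. The groups did not overlap in either cell type, and the log2 fold changes were -0.31 ± 0.09 in Treg and -0.26 ± 0.09 in Tcon (edgeR adjusted p = 0.0574 and 0.149, and 0.00615 and 0.0243 with replicates paired). Atp6v0a1, one of the alternative forms of the large V0 subunit past which protons leave the ring, averaged 16.4 ± 4.70 CPM in Treg with lactic acid and 23.0 ± 8.24 CPM without. With replicates paired its log2 fold change was -0.48 in Treg and -0.33 in Tcon with TGF-beta (edgeR adjusted p = 0.00196 and 0.0297). Also lower with replicates paired were, in Tcon at 72 h with TGF-beta, Atp6v0b (-0.27), Atp6v1b2 (-0.25) and Atp6v1g1 (-0.27), and in Treg the accessory gene Atp6ap2 (-0.22). Without TGF-beta the paired fit called Atp6v0a2 lower at 72 h (-0.36) and Atp6v1e1, a stalk subunit gene, lower at 24 h (-0.21). With TGF-beta at 24 h it called Atp6v1d, of the turning stalk, higher (0.27).

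Among the membrane and transport genes, Lamp1 had 169.6, 166 and 161 CPM in Treg with TGF-beta and lactic acid, against 168, 164 and 167 CPM with TGF-beta alone. Lamp1 had 168, 146 and 151 CPM in Tcon at 72 h with TGF-beta and lactic acid, against 173, 165 and 156 CPM with TGF-beta alone. Both pairs overlapped. Lamp1 had 134, 159 and 142 CPM in Tcon at 72 h without TGF-beta and with lactic acid, against 129 and 146 CPM with neither addition. It had 187, 194 and 186 CPM at 24 h with TGF-beta and lactic acid, against 195, 189 and 181 CPM with TGF-beta alone. The 24 h levels were 205, 193 and 183 CPM with lactic acid, against 201, 208 and 205 CPM with neither. These pairs overlapped too, and the log2 fold changes of Lamp1 were -0.09 to 0.08 (edgeR adjusted p 0.651 to 1.00).

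Mcoln1 encodes a cation channel through which lysosomes release calcium. It had 51.6, 38.7 and 42.4 CPM in Treg with TGF-beta and lactic acid, against 59.7, 51.6 and 39.5 CPM with TGF-beta alone. Mcoln1 had 60.9, 52.2 and 44.2 CPM in Tcon at 72 h with TGF-beta and lactic acid, against 60.1, 52.5 and 46.0 CPM with TGF-beta alone. Both pairs overlapped. Its levels without TGF-beta at 72 h were 36.3, 26.0 and 23.1 CPM with lactic acid, against 39.2 and 30.0 CPM with neither addition. At 24 h Mcoln1 had 40.1, 42.7 and 57.0 CPM with TGF-beta and lactic acid, against 36.5, 42.2 and 50.9 CPM with TGF-beta alone. Levels at 24 h were 29.3, 33.3 and 42.6 CPM with lactic acid, against 30.7, 33.5 and 35.7 CPM with neither. All 3 of these pairs overlapped, and the log2 fold changes of Mcoln1 were -0.28 to 0.11 (edgeR adjusted p 0.689 to 0.991).

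Lamp2, whose product is a membrane glycoprotein used in the fusion of autophagosomes and in chaperone-mediated autophagy, was lower with lactic acid at 72 h and higher at 24 h in cultures with TGF-beta, past the test only with replicates paired. It had 60.3, 47.6 and 49.3 CPM in Treg with TGF-beta and lactic acid, against 85.7, 53.5 and 52.1 CPM with TGF-beta alone. Lamp2 had 65.9, 54.8 and 53.8 CPM in Tcon at 72 h with TGF-beta and lactic acid, against 90.0, 61.3 and 63.2 CPM with TGF-beta alone. Replicate 1 was the highest library in these groups, and each replicate was lower with lactic acid. At 24 h Lamp2 had 63.1, 68.8 and 67.3 CPM with TGF-beta and lactic acid, against 52.7, 54.5 and 55.6 CPM with TGF-beta alone, without overlap. Its log2 fold change with replicates paired was -0.26 in Treg, -0.28 in Tcon at 72 h and 0.29 in Tcon at 24 h (edgeR adjusted p = 0.0160, 0.0110 and 0.0206), and without pairing none of the 3 passed (0.456, 0.496 and 0.749). Without TGF-beta, Lamp2 had 53.6, 39.9 and 40.0 CPM at 72 h with lactic acid, against 71.6 and 44.4 CPM with neither addition, and the groups overlapped. At 24 h without TGF-beta it had 52.9, 53.5 and 50.8 CPM with lactic acid, against 46.0, 44.3 and 43.5 CPM with neither, without overlap. Neither passed, with log2 fold changes of -0.29 and 0.23 with replicates paired (edgeR adjusted p = 0.0680 and 0.0892). Of the partner genes for cholesterol export, Npc2 averaged 284 ± 20.5 CPM in Treg with lactic acid and 237 ± 16.5 CPM without, a log2 fold change of 0.26 ± 0.11 that passed with replicates paired (edgeR adjusted p = 0.00462) and not without (0.209). Npc1 passed in none of the 5 comparisons in either fit, with log2 fold changes of -0.03 to 0.20.

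Among the peptidases, Ctsd encodes the main aspartyl peptidase of lysosomes. It had 75.3, 75.7 and 75.1 CPM in Treg with TGF-beta and lactic acid, against 86.1, 73.1 and 71.9 CPM with TGF-beta alone. Ctsd had 72.3, 75.6 and 75.2 CPM in Tcon at 72 h with TGF-beta and lactic acid, against 93.6, 79.7 and 65.1 CPM with TGF-beta alone. Both pairs overlapped. Without TGF-beta at 72 h Ctsd had 108, 69.9 and 74.2 CPM with lactic acid, against 139 and 85.8 CPM with neither addition. It had 75.3, 83.3 and 87.5 CPM at 24 h with TGF-beta and lactic acid, against 76.4, 69.6 and 67.2 CPM with TGF-beta alone. The 24 h levels were 70.5, 70.8 and 73.7 CPM with lactic acid, against 65.4, 74.0 and 63.1 CPM with neither. These pairs overlapped as well, and the log2 fold changes of Ctsd were -0.42 to 0.21 (edgeR adjusted p 0.478 to 0.976). Leaving out replicate 2 of Tcon with neither addition at 72 h made the lowest of them -0.74, with replicate 1 (139 CPM) as the only library of that group.

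Ctsl, a cysteine peptidase gene, was among the lowest of the list. It had 6.70, 4.21 and 3.09 CPM in Treg with TGF-beta and lactic acid, against 9.41, 4.28 and 3.30 CPM with TGF-beta alone. Ctsl had 6.07, 2.26 and 3.06 CPM in Tcon at 72 h with TGF-beta and lactic acid, against 9.69, 4.53 and 2.85 CPM with TGF-beta alone. Replicate 1 was the highest library in all 4 groups, and both pairs overlapped. Ctsl had 9.70, 4.34 and 5.80 CPM in Tcon at 72 h without TGF-beta and with lactic acid, against 10.4 and 4.07 CPM with neither addition. At 24 h Ctsl had 5.51, 7.25 and 6.68 CPM with TGF-beta and lactic acid, against 3.99, 3.76 and 4.29 CPM with TGF-beta alone. Levels at 24 h were 2.76, 3.12 and 4.01 CPM with lactic acid, against 1.70, 2.34 and 1.60 CPM with neither. At 24 h the lowest library with lactic acid lay above the highest without it in both media. The log2 fold change at 24 h was 0.69 ± 0.45 with TGF-beta (edgeR adjusted p = 0.773, and 0.0292 with replicates paired) and 0.80 ± 0.50 without it (0.825, and 0.0580 paired). At 72 h it was -0.28 in Treg, -0.57 in Tcon with TGF-beta and -0.14 in Tcon without it (edgeR adjusted p 0.650 to 0.939).

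Ctsa encodes a carboxypeptidase that also protects beta-galactosidase in a complex. It had 92.3, 91.6 and 98.5 CPM in Treg with TGF-beta and lactic acid, against 73.2, 86.3 and 76.3 CPM with TGF-beta alone. Ctsa had 94.3, 92.4 and 90.9 CPM in Tcon at 72 h with TGF-beta and lactic acid, against 73.9, 77.7 and 73.2 CPM with TGF-beta alone. The groups did not overlap in either cell type. The log2 fold changes of 0.26 ± 0.09 and 0.30 ± 0.09 passed with replicates paired (edgeR adjusted p = 0.00753 and 0.00283) and not without (0.130 and 0.0892). Ctsb, Ctsc, Ctss, Ctsz and Lgmn passed in none of the 5 lactic acid comparisons in either fit. Beside the values of Tcon at 72 h, the 11 myeloid markers summed to 11.02 to 12.1 CPM in cultures with TGF-beta alone. With TGF-beta and lactic acid they summed to 14.8 to 20.3 CPM. Of these markers, Mpeg1 averaged 13.4 CPM with lactic acid and 8.04 CPM without, and Cd68 3.24 and 3.05 CPM. In Treg the 11 markers summed to 10.1 to 12.1 CPM with lactic acid, against 9.03 to 12.1 CPM without. The part of the myeloid markers in the results was not tested. The Treg groups also differed in Foxp3, with 467 CPM on average with lactic acid and 224 CPM without. The Tcon groups at 72 h with TGF-beta differed too, with 48.2 CPM on average with lactic acid and 23.4 CPM without. The part of these differences in the results for Treg and Tcon was not tested.

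In Treg under lactic acid the 12 genes with TCACGTG in the promoter had a median log2 fold change of 0.03 and 0 calls without pairing, and the 19 without it had a median of 0.07 and 2 calls, Arsb and Hexa. With replicates paired, the genes called in Treg were Ctsa and Arsa of the 12 with the letters. Of the 19 without them, they were Arsb, Hexa, Psap, Npc2, Tfe3, Lamp2, Atp6v0c, Atp6v0a1 and Atp6ap2. In Tcon at 72 h with TGF-beta the paired calls were Ctsa and Atp6v0b with the letters. Without the letters they were Arsb, Gusb, Tfe3, Atp6v0c, Atp6v0a1 and Lamp2. Atp6v1b2 and Atp6v1g1, also called there, had no promoter sequence. Tcon at 72 h with TGF-beta had medians of -0.05 for the genes with it and -0.08 for those without it.

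Whether the response to lactic acid itself differed was tested in 5 interactions, and 0 of the 38 genes passed the edgeR test in any of them without pairing. DESeq2 called 0 in each as well, with at most 0.362% of all genes called. For the difference between Treg and Tcon at 72 h, 0 genes were below an unadjusted p of 0.05, where 2.65% of all genes were, and 0% of all genes passed. The difference for Arsb was 0.14 ± 0.50 on the log2 scale. For the interaction with TGF-beta in Tcon at 72 h, 6 genes were below an unadjusted p of 0.05 (7.8% of all genes) and 0.104% of all genes passed. Arsb had a difference of 1.57 ± 0.55 there (edgeR adjusted p = 0.420, and 0.0195 with replicates paired). At 24 h that interaction left 1 gene below an unadjusted p of 0.05 (1.37% of all genes), with 0% of all genes passing. For the difference between 72 h and 24 h, 7 genes were below an unadjusted p of 0.05 without TGF-beta (9.13%, with 0% passing) and 7 with it (5.71%, with 0.0278% passing). With replicates paired, 3 genes were called higher and 1 lower in the interaction with TGF-beta at 72 h (1.99% and 2.55% of all genes). For the difference between the times the paired counts were 1 higher and 5 lower with TGF-beta (1.11% and 2.25%) and 0 higher and 2 lower without it (1.77% and 2.92%).

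In other lysosomal genes, from 6 lists that hold none of the 38, 113 genes were tested. In Treg 3 of them rose with lactic acid and 1 fell (1.49% and 2.02% of all genes), in Tcon at 72 h with TGF-beta 2 rose and 2 fell (2.16% of all genes passed in either direction), and at 24 h with TGF-beta 1 rose (0.23%). Pairing replicates raised the counts in every comparison: 17 higher and 10 lower in Treg (9.91% and 9.79% of all genes), 11 and 10 in Tcon at 72 h with TGF-beta (6.7% and 8.68%), 1 and 5 at 72 h without it (1.12% and 2.3%), 8 and 3 at 24 h with it (4.26% and 2.44%), and 8 and 0 at 24 h without it (3.12% and 1.15%). Without pairing, of 36 further hydrolase genes (34 tested), 1 rose in Treg and, in Tcon at 72 h with TGF-beta, 1 rose and 1 fell. Of 24 further membrane genes (23 tested), 2 rose in Treg, 1 in Tcon at 72 h with TGF-beta and 1 in Tcon at 24 h with TGF-beta. Of 14 further pump subunit and assembly genes (7 tested), 1 fell in Treg, and of 15 sorting and trafficking genes 1 fell in Tcon at 72 h with TGF-beta. None of the 17 genes for regulation and nutrient sensing and none of the 17 autophagy genes passed without pairing in any of the 5 comparisons, and no gene of the 6 lists passed without pairing in Tcon without TGF-beta at either time, where DESeq2 called 1 at 72 h and 1 at 24 h. With replicates paired, 2 regulation genes were higher and 1 lower in Treg, and 2 autophagy genes were lower. These were Lamtor4 (0.51) and Lamtor2 (0.37), of the complex that anchors mTORC1 at the lysosome, the folliculin gene Flcn (-0.41), and Gabarapl1 (-0.62) and Map1lc3a (-0.79), whose products coat autophagosomes, as paired log2 fold changes. The autophagy gene Atg9a was higher at 24 h with replicates paired, by 0.41 with TGF-beta and 0.53 without. Of the further pump genes, Tcirg1 was higher with replicates paired in Treg (0.23) and in Tcon at 72 h with TGF-beta (0.32). It was also higher in Tcon at 24 h without TGF-beta (0.41), and Wdr7 was higher in Treg (0.27). Dmxl2 was lower with replicates paired in Treg (-2.28) and in Tcon at 72 h with and without TGF-beta (-1.11 and -1.24). Dmxl2 was also lower with replicates paired at 24 h with TGF-beta (-3.42), at very low levels. There it averaged 0.0528 CPM with lactic acid and 0.684 CPM without (edgeR adjusted p = 0.301 without pairing). At 72 h without TGF-beta its groups overlapped, with 9.07 ± 8.59 CPM in the 2 libraries with neither addition. Without the libraries of replicate 1 its log2 fold change there was -0.30. Over each whole list, the median log2 fold change without pairing in Treg was 0.14 for the hydrolases, 0.06 for the membrane genes, -0.21 for the pump genes, -0.02 for sorting, 0.02 for regulation and -0.04 for autophagy.

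Abcb9, which encodes a peptide transporter of the lysosomal membrane, rose in 3 comparisons, and in all 5 with replicates paired. It averaged 22.4 ± 3.59 CPM in Treg with lactic acid and 9.22 ± 2.08 CPM without, a log2 fold change of 1.28 ± 0.23 (edgeR adjusted p = 0.00210). Abcb9 averaged 41.8 ± 4.80 CPM in Tcon at 72 h with TGF-beta and lactic acid and 13.2 ± 4.57 CPM with TGF-beta alone (1.66 ± 0.22, edgeR adjusted p = 0.000118). In Tcon at 24 h with TGF-beta it averaged 13.8 ± 2.17 CPM with lactic acid and 5.29 ± 1.54 CPM without (1.39 ± 0.24, edgeR adjusted p = 0.0135). Without TGF-beta, Abcb9 averaged 80.4 ± 12.8 CPM at 72 h with lactic acid and 50.4 ± 12.0 CPM with neither addition, and 21.5 ± 1.88 CPM at 24 h with lactic acid and 11.5 ± 0.979 CPM with neither. Its log2 fold changes there were 0.67 ± 0.24 and 0.90 ± 0.22 (edgeR adjusted p = 0.393 and 0.161, and 0.00749 and 0.000344 with replicates paired). In Treg, Naglu, an enzyme of heparan sulfate breakdown, rose by a log2 fold change of 0.64 ± 0.14, and Scarb2, the receptor that carries glucocerebrosidase to lysosomes, by 0.40 ± 0.09 (edgeR adjusted p = 0.0110 and 0.0141). Dmxl2, which aids assembly of the pump, averaged 0.478 ± 0.178 CPM in Treg with lactic acid and 2.49 ± 1.60 CPM without (-2.34 ± 0.64, edgeR adjusted p = 0.0449). In Tcon at 72 h with TGF-beta, Acp5, an acid phosphatase, rose by 0.84 ± 0.19, while Asah1, acid ceramidase, and Vps18, of the complexes that tether lysosomes for fusion, had log2 fold changes of -0.46 ± 0.11 and -0.36 ± 0.09 (edgeR adjusted p = 0.0210, 0.0278 and 0.0403). With replicates paired, 4 of these genes were also called in the other cell type. Acp5 was higher in Treg (0.63) and Asah1 lower (-0.35, edgeR adjusted p = 0.000382 and 0.00880). In Tcon at 72 h with TGF-beta, Naglu (0.48) and Scarb2 (0.27) were higher (edgeR adjusted p = 0.00481 and 0.00495). Of the 9 calls without pairing, those of Abcb9 at 72 h held when any 1 library was left out. The others were lost in 2 to 5 of 6 such fits.

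TGF-beta, which induces Foxp3 in activated T cells, changed more of these genes than lactic acid did in any comparison made. It changed more of all genes as well. At 72 h with lactic acid the counts without pairing lay near the shares of all genes. At 24 h, 11 of the 38 rose with TGF-beta in the presence of lactic acid, where 8.06% of all genes rose, and 0 fell (4.38%). Without lactic acid 9 rose (7.96%) and 0 fell (3.35%). At 72 h in Tcon, 10 rose and 8 fell with lactic acid (22.5% and 22.5% of all genes), and 10 rose and 7 fell without it (12.8% and 11.7%). With replicates paired the 24 h counts were 18 higher and 1 lower with lactic acid (17.3% and 15.1% of all genes) and 16 higher and 2 lower without it (16.6% and 15.1%). At 72 h they were 12 higher and 15 lower with lactic acid (29.1% and 30.9%) and 14 higher and 8 lower without it (21.3% and 24.1%). The comparisons with and without lactic acid use different libraries.

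Npc1, the membrane protein that exports cholesterol from lysosomes, was among the genes with the largest changes in all 4 comparisons. At 72 h in Tcon it had 143, 112 and 110.1 CPM with TGF-beta and lactic acid, against 60.2, 42.3 and 46.3 CPM with lactic acid alone. Without lactic acid it had 144, 127 and 103 CPM with TGF-beta, against 58.3 and 39.9 CPM with neither. The lowest library with TGF-beta was above the highest without it in both. The log2 fold change was 1.297 ± 0.15 with lactic acid and 1.34 ± 0.17 without (edgeR adjusted p = 3.56e-07 and 3.84e-06). It had 75.6, 88.0 and 84.4 CPM at 24 h with TGF-beta and lactic acid, against 39.0, 49.1 and 44.9 CPM with lactic acid alone. Without lactic acid at 24 h it had 67.1, 79.1 and 73.7 CPM with TGF-beta, against 38.8, 42.7 and 42.4 CPM with neither. These groups were apart as well, with log2 fold changes of 0.90 ± 0.15 and 0.83 ± 0.15 (edgeR adjusted p = 0.000191 and 0.000538).

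Npc2, which hands cholesterol to Npc1 inside the lysosome, went the other way at 72 h. It had 279, 241 and 223 CPM in Tcon with TGF-beta and lactic acid, against 538, 449 and 459.7 CPM with lactic acid alone. Without lactic acid it had 272, 232 and 205 CPM with TGF-beta, against 617 and 550.5 CPM with neither. No library with TGF-beta reached the lowest without it, and the log2 fold changes were -0.96 ± 0.11 and -1.31 ± 0.12 (edgeR adjusted p = 2.21e-07 and 2.23e-08). At 24 h its log2 fold changes were -0.07 and -0.14, and neither passed.

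Arsb, whose libraries are given above, rose with TGF-beta by 2.11 ± 0.38 in Tcon at 72 h with lactic acid, by 1.74 ± 0.37 at 24 h with lactic acid and by 1.73 ± 0.38 at 24 h without it (edgeR adjusted p = 9e-05, 0.00246 and 0.00334). At 72 h without lactic acid it averaged 21.7 ± 10.2 CPM with TGF-beta and 14.96 ± 4.01 CPM with neither, and did not pass (0.54 ± 0.42, edgeR adjusted p = 0.388). Gusb fell at 72 h: it had 30.2, 53.4 and 70.9 CPM in Tcon with TGF-beta and lactic acid, against 70.3, 149 and 126 CPM with lactic acid alone. Without lactic acid it had 21.3, 47.6 and 56.1 CPM with TGF-beta, against 60.1 and 124 CPM with neither. Replicate 1 was low in all 4 groups, and within each replicate Gusb was lower with TGF-beta. The log2 fold changes were -1.16 ± 0.38 and -1.14 ± 0.41 (edgeR adjusted p = 0.0155 and 0.0464). The call without lactic acid was lost without replicate 1 or 2 of the TGF-beta group (edgeR adjusted p = 0.175 and 0.0702) or replicate 2 of the group with neither (log2 fold change -0.54, 0.531), and the call with lactic acid without replicate 1 of the TGF-beta group (0.0881) or replicate 2 of the lactic acid group (0.0781).

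Ctss encodes a cysteine peptidase known for cutting the invariant chain in antigen-presenting cells. At 72 h in Tcon it had 82.6, 76.8 and 68.8 CPM with TGF-beta and lactic acid, against 38.3, 29.9 and 34.8 CPM with lactic acid alone. Without lactic acid it had 82.3, 77.3 and 70.8 CPM with TGF-beta, against 40.2 and 34.2 CPM with neither. The groups did not overlap, with log2 fold changes of 1.15 ± 0.12 and 1.05 ± 0.14 (edgeR adjusted p = 8.25e-08 and 5.06e-06). Beside this, the 11 myeloid markers summed to 14.8 to 20.3 CPM with TGF-beta and lactic acid, against 4.70 to 5.39 CPM with lactic acid alone, and to 11.02 to 12.1 CPM with TGF-beta, against 5.22 to 7.75 CPM with neither. Mpeg1 alone averaged 13.4 CPM with TGF-beta and lactic acid against 0.344 CPM with lactic acid alone, Lyz2 averaged 0.0342 CPM against 0.181 CPM, and 5 to 7 of the 11 markers were at 0 in each of these libraries. The 7 markers of CD8 T and NK cells summed to 141.6 to 203 CPM with TGF-beta and lactic acid, against 60.4 to 110.2 CPM with lactic acid alone, and to 124.4 to 155.6 CPM with TGF-beta, against 65.2 to 137.7 CPM with neither. The part of either marker list in the changes of Ctss and of the other genes that moved with TGF-beta at 72 h was not tested.

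Arsa rose in all 4 comparisons, by 0.87 ± 0.15 and 0.67 ± 0.17 on the log2 scale in Tcon at 72 h with and without lactic acid, and by 1.01 ± 0.15 and 0.81 ± 0.15 at 24 h (edgeR adjusted p = 7.31e-05, 0.00593, 4.99e-05 and 0.00076). The call at 72 h without lactic acid was lost without replicate 2 of the group with neither addition (edgeR adjusted p = 0.128). Lgmn, the gene of the asparaginyl endopeptidase that matures other cathepsins, had 7.41, 5.90 and 9.04 CPM at 24 h with TGF-beta and lactic acid, against 3.51, 2.96 and 3.10 CPM with lactic acid alone. At 24 h without lactic acid it had 5.05, 5.02 and 4.66 CPM with TGF-beta, against 2.96, 3.01 and 2.13 CPM with neither. Neither pair overlapped. It rose by 1.22 ± 0.26 and 0.86 ± 0.26 on the log2 scale (edgeR adjusted p = 0.00190 and 0.0358). The call without lactic acid was lost when any 1 of its 6 libraries was left out (edgeR adjusted p 0.0667 to 0.134). Tfeb rose at 24 h without lactic acid by 0.78 ± 0.14, and Atp6v1d at 24 h with lactic acid by 0.68 ± 0.10 (edgeR adjusted p = 0.00044 and 3.94e-05).

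Of the other genes of the list, at 72 h Hexa, Mcoln1, Psap, Ctsa, Atp6v1d and Atp6v1h rose both with and without lactic acid, and Lamp1 rose without it. Gaa, Ctsb and Atp6v1e1 fell both with and without lactic acid at 72 h, Ctsd and Atp6v0a2 fell without it, and Ctsz, Atp6v0c and Atp6v1a fell with it. These log2 fold changes ran from -0.88 (Gaa with lactic acid) to 0.92 (Hexa with lactic acid). At 24 h, Psap, Ctsc, Atp6v1d and Tfeb rose both with and without lactic acid, Atp6v0c rose without it, and Atp6v1e1, Ctsa and Ctss rose with it, by log2 fold changes of 0.19 to 0.78 over both media. Leaving out replicate 2 of the group with neither addition at 72 h left 11 calls without lactic acid in place of 17, and a fit of those 2 groups alone gave 3. At 24 h the markers of CD8 T and NK cells summed to 62.1 to 67.7 CPM with TGF-beta and lactic acid, against 143.5 to 165.5 CPM with lactic acid alone, and to 74.0 to 74.8 CPM with TGF-beta, against 127 to 148 CPM with neither. The markers of this list moved in opposite directions: Eomes averaged 12.7 CPM with TGF-beta and lactic acid against 123.96 CPM with lactic acid alone, and Nkg7 43.95 CPM against 16.5 CPM. Their part in the 24 h results was not tested.

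**Figure D4:**
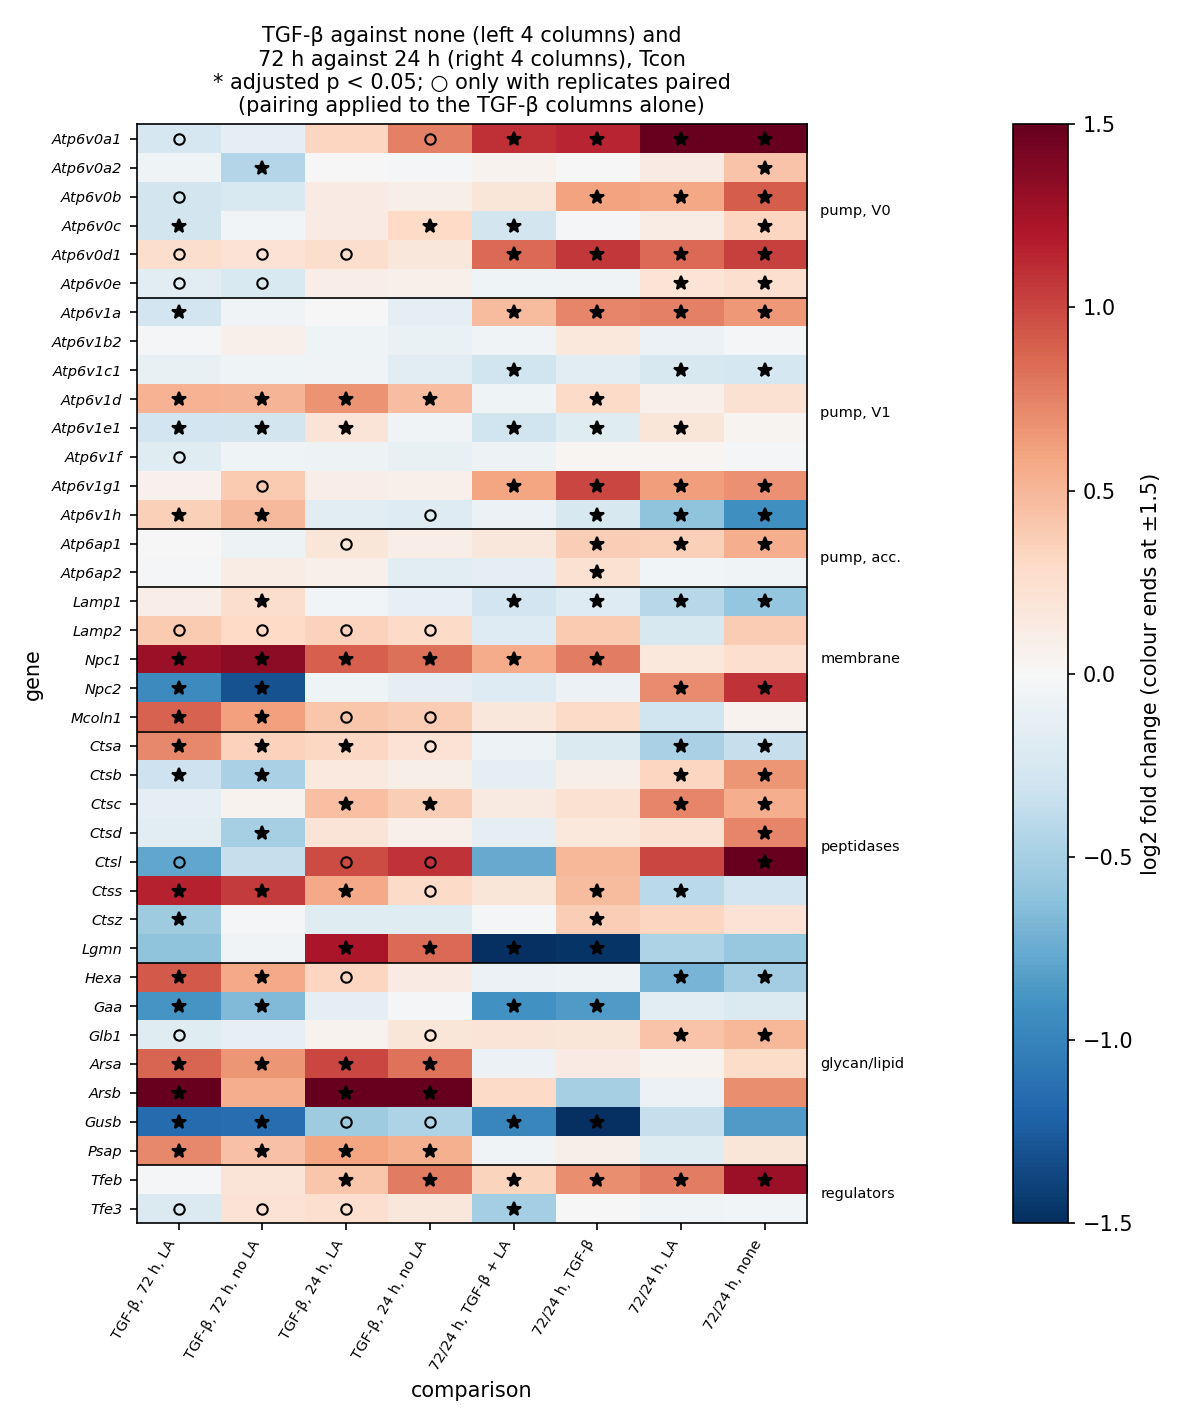
Log2 fold changes of the 38 genes (rows, by role) in Tcon for TGF-beta against none (left 4 columns) and for 72 h against 24 h (right 4 columns), with colour ending at 1.5, stars at an edgeR adjusted p below 0.05 and circles where that held only with replicates paired. Npc1, Arsa and Psap are red with stars in all 4 TGF-beta columns, and Atp6v0a1 and Atp6v0d1 are red with stars in all 4 time columns.

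Few of these genes differed between Treg and Tcon sorted from the same cultures at 72 h: Ctsz rose and Gaa fell, both in cultures with lactic acid. With TGF-beta and lactic acid, 1 gene rose in Treg against Tcon (1.27% of all genes rose) and 1 fell (1.27%), and with TGF-beta alone 0 passed the edgeR test (0.216% of all genes), with 3 below an unadjusted p of 0.05 (5.63%) and 0 called by DESeq2 (0.515%). Ctsz had 95.0, 124 and 118 CPM in Treg with TGF-beta and lactic acid, against 71.6, 70.8 and 73.5 CPM in Tcon, without overlap. With TGF-beta alone it had 74.0, 119 and 127 CPM in Treg, against 75.2, 85.1 and 86.7 CPM in Tcon, with replicate 1 of Treg below all Tcon libraries. The log2 fold change was 0.64 ± 0.14 with lactic acid (edgeR adjusted p = 0.0126) and 0.38 ± 0.14 without (0.558). Gaa had 28.8, 26.2 and 32.2 CPM in Treg with TGF-beta and lactic acid, against 40.9, 32.8 and 39.6 CPM in Tcon, a log2 fold change of -0.38 ± 0.10 (edgeR adjusted p = 0.0379).

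Both calls were lost in 4 of 6 fits that left out 1 library: that of Ctsz without replicate 1 or 2 of Tcon or replicate 2 or 3 of Treg (edgeR adjusted p 0.0513 to 0.0996), and that of Gaa without replicate 1 or 3 of Tcon or replicate 1 or 2 of Treg (0.0816 to 0.275). With replicates paired, 6 genes were higher and 1 lower in Treg with lactic acid (7% and 5.75% of all genes), and 0 genes differed with TGF-beta alone (2.94% of all genes). The 6 were Ctsz, Arsb (0.79), Tfeb (0.42), Ctss (0.30), Npc1 (0.26) and Npc2 (0.20), on the log2 scale. Myeloid markers summed to 10.1 to 12.1 CPM in Treg with TGF-beta and lactic acid, against 14.8 to 20.3 CPM in Tcon. Mpeg1 averaged 7.99 CPM in these Treg and 13.4 CPM in Tcon, and Cd68 2.60 and 3.24 CPM. The part of the myeloid markers in the differences between Treg and Tcon was not tested.

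Between 72 h and 24 h in Tcon, 2 genes of the V0 sector, Atp6v0a1 and Atp6v0d1, rose in every medium. Per medium, 14 to 21 of the 38 genes passed the edgeR test. With TGF-beta in the medium the counts lay near or below the shares of all genes. Without it the rises lay above their shares and the falls below. With TGF-beta and lactic acid 6 genes were higher and 8 lower at 72 h (24.4% and 23% of all genes), with TGF-beta alone 12 and 6 (28% and 24.8%), with lactic acid alone 13 and 6 (26.5% and 20.1%), and with neither 16 and 5 (27.1% and 18.4%). No source used here says that both times were taken from the same cultures or on the same day, so time and experiment cannot be told apart. Without replicate 1 of the 72 h group with neither addition, the count for that medium was 12 in place of 21. The markers of CD8 T and NK cells summed to 141.6 to 203 CPM at 72 h with both additions, against 62.1 to 67.7 CPM at 24 h, to 124.4 to 155.6 CPM at 72 h with TGF-beta, against 74.0 to 74.8 CPM at 24 h, to 60.4 to 110.2 CPM at 72 h with lactic acid, against 143.5 to 165.5 CPM at 24 h, and to 65.2 to 137.7 CPM at 72 h with neither, against 127 to 148 CPM at 24 h. The myeloid markers summed to 14.8 to 20.3 CPM at 72 h with both additions, against 5.10 to 7.55 CPM at 24 h, and to 4.70 to 12.1 CPM at 72 h in the other media, against 2.46 to 4.93 CPM at 24 h. With both additions Mpeg1 averaged 13.4 CPM at 72 h and 2.61 CPM at 24 h, and Cd68 3.24 and 2.63 CPM. The part of either list in these results was not tested.

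The gene with the largest rise in all 4 media was Atp6v0a1. With TGF-beta and lactic acid it had 24.0, 16.02 and 20.4 CPM at 72 h, against 10.6, 7.97 and 9.75 CPM at 24 h. With neither addition it had 36.0 and 20.7 CPM at 72 h, against 7.56, 6.19 and 6.85 CPM at 24 h. All 72 h libraries lay above all 24 h libraries, replicate 1 highest at 72 h, and the log2 fold changes were 1.10 with both additions, 1.14 with TGF-beta, 1.68 with lactic acid and 2.04 with neither (edgeR adjusted p = 0.00125, 0.000713, 1.56e-05 and 3.94e-06). Atp6v0d1 rose by 0.85, 1.06, 0.85 and 1.02 in the same order of media (edgeR adjusted p 5.65e-08 to 1.68e-06). Atp6v1a, Atp6v1g1 and Tfeb also rose in all 4 media and Lamp1 fell in all 4. Among the largest changes were those of Tfeb without TGF-beta (0.77 with lactic acid and 1.29 with neither), of Atp6v1a and Ctsc with lactic acid (0.76 and 0.73), and of Atp6v1g1 with TGF-beta (1.00).

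Lgmn and Gusb fell between the times in cultures with TGF-beta. Lgmn had 1.20, 1.85 and 1.57 CPM at 72 h with TGF-beta and lactic acid, against 7.41, 5.90 and 9.04 CPM at 24 h, a log2 fold change of -2.28 ± 0.28 (edgeR adjusted p = 4.04e-07). With TGF-beta alone it had 2.22, 1.17 and 1.90 CPM at 72 h, against 5.05, 5.02 and 4.66 CPM at 24 h (-1.48 ± 0.27, edgeR adjusted p = 0.000102). No 72 h library reached the lowest 24 h library. Gusb had log2 fold changes of -0.98 ± 0.38 with both additions and -1.52 ± 0.38 with TGF-beta (edgeR adjusted p = 0.0356 and 0.00197). The call with both additions was lost without any of the 3 libraries at 24 h or without replicate 1 or 2 at 72 h (edgeR adjusted p 0.0618 to 0.173). Gaa had a log2 fold change of -0.91 ± 0.10 with both additions (edgeR adjusted p = 5.88e-08). With TGF-beta alone Gaa averaged 35.6 CPM at 72 h and 64.3 CPM at 24 h.

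Ctsl and Npc2 rose between the times with neither addition. Ctsl had 10.4 and 4.07 CPM at 72 h, against 1.70, 2.34 and 1.60 CPM at 24 h, a log2 fold change of 1.93 ± 0.52 (edgeR adjusted p = 0.00418). Replicate 2 at 72 h lay nearer to the 24 h libraries than to replicate 1 at 72 h, and without replicate 1 the log2 fold change was 1.11 and did not pass (edgeR adjusted p = 0.201). Npc2 had 617 and 550.5 CPM at 72 h, against 268, 286 and 274 CPM at 24 h, without overlap (1.08 ± 0.12, edgeR adjusted p = 1.4e-07). With lactic acid alone both genes were also higher at 72 h, without overlap. There Npc2 averaged 482 CPM at 72 h and 296 CPM at 24 h, and Ctsl 6.61 and 3.30 CPM.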

How the data were processed

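PolyA RNA of sorted cells was sequenced as 65-base single reads from stranded libraries, per the labels' protocols. The deposited values are whole-number read counts per Ensembl gene, 1 file per library. STAR 2.7.3a, HTSeq 0.12.4, DESeq2 1.30.1 and GRCm39 are named in the submitters' processing notes; the counting strand and the release of the annotation are not given in these sources, so reads of a gene and of an antisense partner may be mixed. HTSeq's summary lines (5.72% to 11.2% of reads with no feature, 1.01% to 1.13% ambiguous, 13.3% to 17.0% of low quality) stayed out of library sizes and tests. Gene counts per library were 9754511 to 14315313, and the precision of a gene rests on its own count.

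Here, identifiers were matched to symbols (52081 of 55414), and CPM used TMM library sizes. Genes were kept by filterByExpr (minimum count 10, minimum total 15), and 14375 genes in 29 libraries entered 1 edgeR 4.0.16 quasi-likelihood fit (R 4.3.3) with 10 groups. The Benjamini-Hochberg adjustment ran over all 14375 genes, with calls below 0.05, and SE is the size of the log2 fold change over the square root of F. The procedure was tested on simulated data with the same spread for all genes and no replicate effect, so that test could not check the pairing of replicates. Alternatives were RLE scaling, no filter, DESeq2 1.42.0, the compared groups alone, replicate numbers as a block, each library left out in turn, and no replicate 1. Fits that left out a library of the 72 h Tcon group with neither addition kept only the other library there. Its spread then came from the other groups. Replicate numbers come from the labels. Within a time, deviations of same-numbered libraries correlated at 0.123 to 0.772 in all 27 pairs of libraries, from comparisons with 3 shared numbers. Libraries of different numbers correlated at -0.636 to 0.335 in 54 pairs. Deviations from a group mean cancel out within the group. Positive values for the same number thus force negative ones for different numbers, and the gap between these ranges is partly built in. At 72 h replicates 2 and 3 could correlate with each other as well. Replicate 3 of Tcon with TGF-beta and lactic acid correlated at 0.335 with replicate 2 of lactic acid alone, and at 0.245 with its replicate 3. Same-numbered libraries were taken as paired within a time. Between times their correlation was -0.062 to 0.106 in 9 pairs of libraries, so they were not paired there.

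The 38 genes and the other lists were chosen with earlier results of these data known. The rule gave in full the genes called under lactic acid and a panel (Atp6v1a, Atp6v0d1, Lamp1, Ctsd, Ctsl, Arsb, Mcoln1, Tfeb, Tfe3), and for other comparisons the 5 called genes with the largest change; of the other lists, up to 4 called genes per lactic acid comparison. Other members were named after their values were seen. Levels per kilobase used GENCODE M21 exon lengths, merged over all annotated exons of a gene, which can exceed the length of the transcript present. Promoters came from RefSeq on GRCm38.p6, another build than the counts, matched by symbol.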

Additional observations from a re-analysis of the deposited data

Results flagged for a closer look

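Differences between the lactic acid effects of 2 settings passed the edgeR test for 12 gene and interaction pairs, in each case only with replicates paired within a time. Without pairing none of them passed, and all values are differences of log2 fold changes. In Tcon at 72 h, the effect with TGF-beta minus that without it was 1.7 for Arsb, 0.399 for Atp6v0a2, 0.371 for Ctsa and -0.466 for Tfe3 (edgeR adjusted p = 0.0195, 0.049, 0.0419 and 0.0153). Here 1.99% of all genes were called higher and 2.55% lower.

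The effect at 72 h minus that at 24 h, without TGF-beta, was -0.521 for Lamp2 and -0.321 for Npc2 (edgeR adjusted p = 0.0166 and 0.0497), where 1.77% of all genes were called higher and 2.92% lower. With TGF-beta in Tcon it was 0.561 for Gusb, -0.366 for Atp6ap2, -0.413 for Atp6v0b, -0.511 for Tfe3, -0.574 for Lamp2 and -1.23 for Ctsl (edgeR adjusted p = 0.0318, 0.0343, 0.0395, 0.008, 0.00436 and 0.016), where 1.11% of all genes were called higher and 2.25% lower. Lamp2 was the 1 gene flagged in both media, and its effect was positive at 24 h and negative at 72 h in each.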

How the results depend on the processing

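With replicates paired, by the replicate block within a time, the number of the 38 genes called under lactic acid was 11 in Treg, 10 in Tcon at 72 h with TGF-beta, 1 there without it, 4 at 24 h with TGF-beta and 3 without. The same block gave 18 (without lactic acid) and 19 (with it) for TGF-beta at 24 h, 7 for Treg against Tcon with lactic acid, 4 for the interaction with TGF-beta at 72 h, and 2 and 6 for the difference between times without and with TGF-beta; for TGF-beta at 72 h it gave 27 with lactic acid, against 18 without the block, and 22 without lactic acid, against 17. It called 0 genes for Treg against Tcon with TGF-beta alone and for the other interactions, and was not applicable to the comparisons of 72 h with 24 h. A replicate block over all libraries gave 5 in Treg and 3 in Tcon at 72 h with TGF-beta under lactic acid. Without the filter on low counts these were 1 and 2, Treg against Tcon with lactic acid gave 1, the time comparison with both additions gave 9 and the interaction at 72 h gave 1. DESeq2 gave 4 in Treg and 2 in Tcon at 72 h with TGF-beta. With the compared groups alone the counts were 0 for lactic acid in Treg, 16 for TGF-beta at 24 h and 3 at 72 h without lactic acid, and 1 for Treg against Tcon with it. Leaving out 1 library, or replicate 1, gave 0 to 2 calls under lactic acid in each 72 h comparison and 0 at 24 h. For TGF-beta without lactic acid it gave 6 to 12 at 24 h and 11 to 17 at 72 h, and with lactic acid 8 to 16 at 24 h and 16 to 25 at 72 h. For Treg against Tcon it gave 0 to 1 with TGF-beta alone and 0 to 2 with lactic acid as well. For 72 h against 24 h it gave 12 to 23 with neither addition, 16 to 21 with lactic acid, 13 to 19 with TGF-beta and 11 to 20 with both. For the interactions it gave 0 to 1 for TGF-beta at 72 h and for the times with TGF-beta, and 0 for the others. The cause of these differences was not tested. No value changed sign past the test, and RLE scaling moved none of the 92 single values named across its threshold. Depth limits the low genes most, with Ctsl and Lgmn at 10.4 CPM or less.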
